A study of Homo sapiens with 24 samples.

Results

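The endoplasmic reticulum (ER) genes described here are the chaperones and folding enzymes of the ER and the machinery that brings secretory proteins into it, adds their sugars, removes misfolded ones and passes the rest on. They were 52 listed genes, of which 47 were measured: each had a probe of its own on the array, with detection p under 0.05 on at least 3 of the 24 arrays, and the probe of highest mean stood for the gene. Of all 20045 genes with a named probe, 13283 met the same condition. By role, 18 of 19 folding genes, 15 of 16 genes of translocation and N-glycosylation, 8 of 9 genes of ER-associated degradation, 3 of 3 sensors of the unfolded protein response and 3 of 5 genes of vesicle transport and retrieval were measured. SEC61G, HERPUD1, SEC31A and KDELR2 had no named probe that was used here, and the probe of PDIA3 was detected on 0 arrays.

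Secretory proteins enter the ER through the SEC61 channel, lose their signal peptide to signal peptidase and receive N-linked sugars from oligosaccharyltransferase. Inside, BiP, GRP94, the lectin chaperones and the protein disulfide isomerases fold them, and SEL1L, SYVN1, the EDEM lectins and the derlins take misfolded chains out to the proteasome. When unfolded chains accumulate, IRE1, ATF6 and PERK signal to the nucleus, where XBP1 and ATF6 act on promoter elements of many of these genes. Plasma cells secrete immunoglobulin and carry a large ER, and myeloma, their malignancy, keeps much of it.

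MM1S is a myeloma line that glucocorticoids kill. MM1R is its resistant subline, obtained by long exposure of MM1S to dexamethasone (Dex, a synthetic glucocorticoid), and the study describes it as lacking the glucocorticoid receptor protein. There were 8 groups of 3 arrays: MM1S with Dex and MM1S untreated, MM1R with Dex and MM1R untreated, MM1S with the mimetic and MM1S mock, MM1R with the mimetic and MM1R mock. Dex was given at 1 µM for 72 h, and the mimetic, a synthetic copy of the microRNA mir-150-5p, was electroporated at 150 nM and left for 72 h, while mock cells were electroporated without it. Each line is a single cell line, so the arrays describe repeats of an experiment in it.

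Promoter elements of the unfolded protein response are shown first, because they mark which of these genes carry the sequences that XBP1 and ATF6 are known to use. Of the 52 genes, 45 had a promoter in the RefSeq table (GRCh38.p14; 250 bases before and 50 after the start). The ER stress response element, ERSE, was searched as CCAAT, 9 bases of any kind and CCACG on both strands. It occurred in 27 of 35116 promoters (0.0769%) and in 7 of the 45 genes. The first count is of promoters and the second of genes, here and for the elements that follow. Capitals mark both blocks of the element, each line is read 5′ to 3′, and the strand is that of the printed bases.
HSPA5, chr9:125241386-125241414, minus strand, 66 bases before the start: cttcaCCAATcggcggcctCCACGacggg
HSP90B1, chr12:103930211-103930239, plus strand, 194 bases before the start: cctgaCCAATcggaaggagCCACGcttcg
HSP90B1, chr12:103930316-103930344, minus strand, 89 bases before the start: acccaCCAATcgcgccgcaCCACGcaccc
CALR, chr19:12938379-12938407, minus strand, 225 bases before the start: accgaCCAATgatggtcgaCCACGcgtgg
PDIA6, chr2:10812848-10812876, minus strand, 86 bases before the start: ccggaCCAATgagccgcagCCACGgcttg
CRELD2, chr22:49918549-49918577, minus strand, 80 bases before the start: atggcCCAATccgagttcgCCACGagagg
CANX, chr5:179698773-179698801, plus strand, 151 bases before the start: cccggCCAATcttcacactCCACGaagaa
ERO1B, chr1:236282178-236282206, plus strand, 243 bases before the start: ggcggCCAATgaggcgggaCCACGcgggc

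ERSE-II was searched as ATTGG, 1 base and CCACG, and occurred in 19 of the 35116 promoters (0.0541%) and in 3 of the 45, of which the 2 measured genes are shown. The core of the unfolded protein response element, TGACGTGG, was more common, with 256 promoters (0.729%) and 6 of the 45. It is shown for 5 of these 6 genes. The core in the promoter of HYOU1 overlapped its ERSE-II at 185 bases before the start.
SDF2L1, chr22:21642109-21642129, minus strand, 188 bases before the start: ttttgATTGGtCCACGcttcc
HYOU1, chr11:119057269-119057289, plus strand, 79 bases before the start: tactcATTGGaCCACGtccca
HYOU1, chr11:119057375-119057395, plus strand, 185 bases before the start: ctgggATTGGaCCACGtcacg
SSR3, chr3:156554154-156554171, plus strand, 41 bases before the start: cttgcTGACGTGGctgtt
SSR4, chrX:153794534-153794551, minus strand, 129 bases before the start: agcacTGACGTGGcccct
DNAJC10, chr2:182716127-182716144, minus strand, 125 bases before the start: taggtTGACGTGGcggtg
SEC62, chr3:169966785-169966802, minus strand, 17 bases before the start: ccctcTGACGTGGagcga
KDELR3, chr22:38468045-38468062, minus strand, 46 bases before the start: ggcggTGACGTGGccagg

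Between 17059 and 21328 probes were detected per array. All 8 plasma cell markers were detected on all 24 arrays, and none of the 19 T cell, myeloid, epithelial or stromal markers with a probe was. On at least 3 arrays, 2 of 4 T cell, 4 of 5 myeloid, 1 of 5 epithelial and 4 of 5 stromal markers were detected, with mean levels of at most 7.27 over the 24 arrays, against 8.77 or more for the plasma cell markers. In MM1S, the third mimetic array stood apart from its group: over all detected probes, the SD of its log2 differences was 0.153 to 0.198 from the mock arrays, against 0.305 and 0.307 from mimetic arrays 1 and 2, which lay 0.113 from each other. Results of the mimetic in MM1S are therefore given over all 3 arrays and over replicates 1 and 2, a choice made after the arrays were seen. Whether this sample took up the mimetic or was exchanged could not be tested with these files. In MM1R the 2 transfection groups were mixed, with mimetic 1 nearest to mock 1 (0.129) and mimetic 2 nearest to mock 3 (0.128). Whether MM1R arrays were exchanged could not be tested with these files either.

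Dex lowered most of the ER folding genes in MM1S and part of the translocation machinery. Of the 46 genes tested, 24 fell and 4 rose at a limma adjusted p under 0.05, where 13.5% of all 11535 genes tested fell and 14.3% rose. The folding genes led, with 13 of 18 lower and 1 higher, followed by translocation and N-glycosylation with 8 of 15 lower and 1 higher, while degradation was split with 2 of 8 lower and 2 higher. None of the 3 sensors was called. The median log2 difference, Dex minus untreated, was -0.31 over the 46 genes and 0.01 over all genes, where 1 unit is a 2-fold change. No change passed 2-fold, as 2.79% of all genes did.

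**Figure D1:**
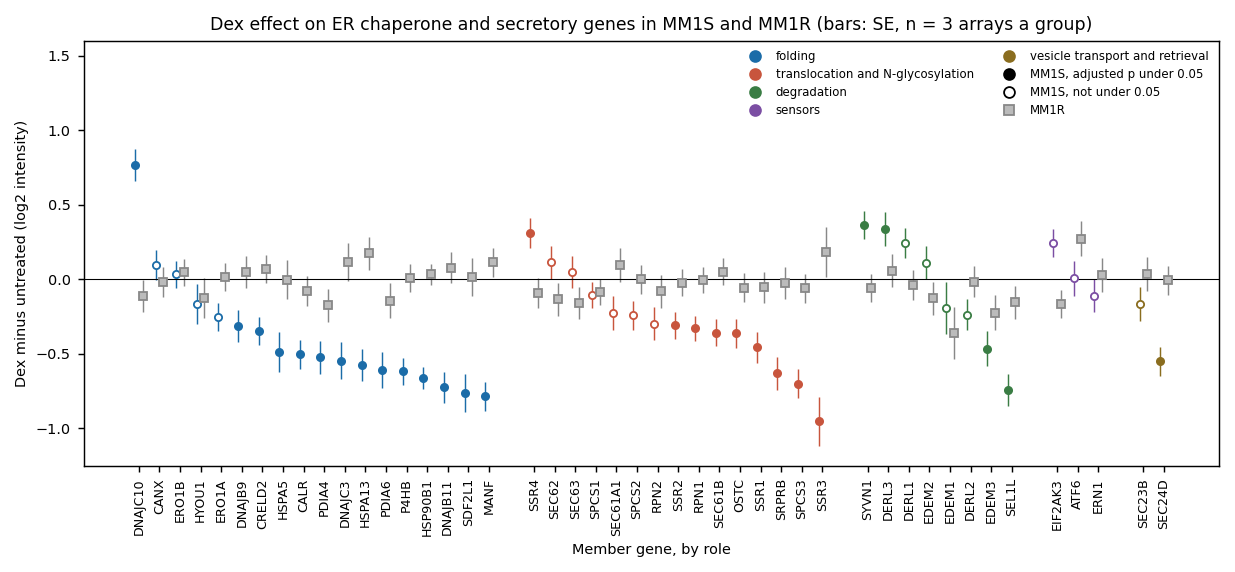
Dex minus untreated on the log2 scale for the 46 genes tested, by role. MM1S is shown as circles (filled where the limma adjusted p was under 0.05) and MM1R as grey squares. Bars are limma standard errors from a spread shared by all groups of the Dex experiment (3 arrays a group), so they are equal in both lines. The MM1S circles run from 0.77 for DNAJC10 to -0.95 for SSR3, while the MM1R squares lie between -0.36 and 0.27.

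Among the folding genes, HSP90B1, which encodes the ER HSP90 known as GRP94, read 13.35, 13.33 and 13.43 (log2 intensity) on the Dex arrays of MM1S, against 14.080, 13.999 and 14.019 on the untreated ones. The difference was -0.66 ± 0.07 (SE, limma adjusted p = 7.48e-07), 1.58-fold lower. All Dex arrays lay below all untreated arrays, with a gap wider than the spread within either group. MANF, an ER-resident protein induced by ER stress, read 11.57, 11.60 and 11.90 with Dex and 12.53, 12.37 and 12.52 untreated, a difference of -0.79 ± 0.10 (limma adjusted p = 4.38e-06). Here too the groups were apart, the highest Dex array being the third. DNAJB11, a J-domain partner of BiP, was 11.68, 11.74 and 11.96 with Dex and 12.47, 12.53 and 12.56 untreated (-0.72 ± 0.10, limma adjusted p = 2.65e-05). P4HB, a protein disulfide isomerase, was 12.10, 12.24 and 12.20 with Dex and 12.90, 12.82 and 12.68 untreated (-0.62 ± 0.09, limma adjusted p = 3.66e-05). Both genes had every Dex array under every untreated one.

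BiP itself, encoded by HSPA5, averaged 8.84 ± 0.01 with Dex and 9.33 ± 0.17 untreated (mean ± SD, n = 3 each), a difference of -0.49 ± 0.13 (limma adjusted p = 0.00998). Its call was lost when untreated array 1 or 3 was left out and with all 24 arrays in the fit. The other folding genes that fell were SDF2L1 (-0.76), a partner of the BiP chaperone complex, PDIA6 (-0.61) and PDIA4 (-0.52), both disulfide isomerases, HSPA13 (-0.57), a member of the HSP70 family, DNAJC3 (-0.55) and DNAJB9 (-0.31), both J-domain partners of BiP, CALR (-0.50), the soluble lectin chaperone calreticulin, and CRELD2 (-0.35). The smallest of these, in DNAJB9, had a limma adjusted p of 0.0407 and lost its call under 10 of 23 alternatives. Not called were CANX, the membrane-bound lectin calnexin, at 0.09 ± 0.10, HYOU1, a nucleotide exchange factor of BiP, at -0.17 ± 0.13, and the oxidases ERO1A at -0.26 ± 0.09 and ERO1B at 0.03 ± 0.09. ERO1B was dim, detected on 14 of 24 arrays.

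DNAJC10, a J-domain protein with thioredoxin-like domains that reduces disulfides of chains bound for degradation, went the other way. It read 11.005, 10.904 and 10.631 on the Dex arrays and 10.082, 10.002 and 10.156 on the untreated ones, and rose by 0.77 ± 0.11 (limma adjusted p = 1.77e-05). It was the only folding gene called higher, and its groups did not overlap. Of the 7 genes with an ERSE, 5 were called lower with Dex (HSPA5, HSP90B1, CALR, PDIA6 and CRELD2) and 2 were not (CANX and ERO1B). All 7 are folding genes, and of the 11 folding genes without an ERSE 8 were called lower, so the shares were near each other. Of the measured genes with an ERSE-II, SDF2L1 was lower and HYOU1 was not called. Of the 5 genes tested with the core of the unfolded protein response element, SSR3 was lower, SSR4 and DNAJC10 were higher and HYOU1 and SEC62 were not called.

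In translocation, SSR3, the gamma subunit of the translocon-associated protein (TRAP) complex, had the lowest difference of any of the 46 genes. It read 8.16, 7.90 and 8.03 with Dex and 9.34, 8.47 and 9.14 untreated (-0.95 ± 0.17, limma adjusted p = 0.000229). The second untreated array was the lowest of its group and still lay above every Dex array. SPCS3, a signal peptidase subunit, was 9.33, 9.41 and 9.39 with Dex and 10.06, 10.20 and 9.97 untreated (-0.70 ± 0.10, limma adjusted p = 1.47e-05). SRPRB, the beta subunit of the receptor that docks ribosomes with the signal recognition particle, was 10.47, 10.62 and 10.84 with Dex and 11.18, 11.21 and 11.43 untreated (-0.63 ± 0.11, limma adjusted p = 0.000188). SSR1, the TRAP alpha subunit, was 10.81, 10.80 and 10.79 with Dex and 11.14, 11.29 and 11.35 untreated (-0.46 ± 0.10, limma adjusted p = 0.00292). In these 3 genes the Dex arrays again all lay under the untreated ones.

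The TRAP subunits did not move together: SSR2 fell by less (-0.31 ± 0.09) and SSR4 rose. SSR4 read 13.24, 13.27 and 13.37 with Dex and 12.94, 13.09 and 12.92 untreated (0.31 ± 0.10, limma adjusted p = 0.0276). Its groups were apart, yet the call was lost when any 1 of 4 arrays of MM1S was left out. Lower with Dex were also SEC61B (-0.36), the beta subunit of the channel, and OSTC (-0.36) and RPN1 (-0.33), both of oligosaccharyltransferase. The channel subunit SEC61A1 (-0.23 ± 0.12), the channel partners SEC62 (0.11 ± 0.11) and SEC63 (0.05 ± 0.11), the signal peptidase subunits SPCS1 (-0.11 ± 0.09) and SPCS2 (-0.24 ± 0.10) and RPN2 (-0.30 ± 0.11) were not called.

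Degradation was divided. SEL1L, which holds the HRD1 ubiquitin ligase complex together, read 8.29, 8.06 and 7.81 with Dex and 8.81, 8.85 and 8.74 untreated (-0.74 ± 0.11, limma adjusted p = 2.96e-05). EDEM3, a mannosidase that marks misfolded glycoproteins, read 8.69, 8.66 and 8.82 with Dex and 9.33, 9.18 and 9.06 untreated (-0.47 ± 0.12, limma adjusted p = 0.00575), though its second probe gave -0.20 and was not called. In contrast, SYVN1, the HRD1 ligase that SEL1L partners, rose, with 11.68, 11.70 and 11.45 with Dex and 11.26, 11.25 and 11.23 untreated (0.36 ± 0.09, limma adjusted p = 0.00654). DERL3, the derlin of secretory tissues, read 9.20, 9.06 and 9.28 with Dex and 8.84, 8.90 and 8.79 untreated (0.34 ± 0.11, limma adjusted p = 0.0324). Its Dex arrays all lay above the untreated ones, but the call was lost under 8 of 23 alternatives. EDEM1 (-0.19 ± 0.18), EDEM2 (0.11 ± 0.11), DERL1 (0.24 ± 0.10) and DERL2 (-0.24 ± 0.10) were not called.

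Of the remaining genes, SEC24D, a cargo adaptor of the COPII coat, fell, with 7.827, 7.995 and 7.964 with Dex and 8.45, 8.42 and 8.57 untreated (-0.55 ± 0.10, limma adjusted p = 0.000229) and no overlap. SEC23B, of the same coat, differed by -0.17 ± 0.11 and was not called. The sensors ERN1 (IRE1), ATF6 and EIF2AK3 (PERK) differed by -0.11 ± 0.11, 0.00 ± 0.12 and 0.24 ± 0.09, with a lowest limma adjusted p of 0.0719. A second list of 57 genes of the secretory pathway, of which 56 were tested, held 13 lower and 3 higher, with a median of -0.09. It was led downward by FKBP11 (-0.96), SEC11C (-0.54), BET1 (-0.61) and STT3A (-0.54). Upward it was led by CREB3L2 (1.38, limma adjusted p = 1.85e-08), a membrane-bound transcription factor that promotes secretory genes, followed by MCFD2 (0.37) and UBE2J1 (0.37). Arrays of whole cultures cannot tell fewer cells with the transcript from less of it per cell. Of the 28 calls, 15 held under every alternative run. Under median centring, which turned the 1645 higher and 1555 lower genes of the whole array into 2183 and 1085, 6 of the 28 were lost.

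In MM1R, none of the 46 genes was called with Dex in either direction, as was the case for all 11535 genes tested (0% higher and 0% lower, limma adjusted p under 0.05). At an unadjusted p under 0.05 there was 1 of the 46, ATF6 at 0.27 ± 0.12, and 432 of all genes. HSP90B1 read 13.99, 13.90 and 14.01 with Dex and 13.95, 13.90 and 13.95 untreated. MANF read 12.81, 12.91 and 12.72 with Dex and 12.76, 12.67 and 12.68 untreated. For both genes the arrays of the 2 groups were interleaved or touched, and their differences were 0.03 ± 0.07 and 0.11 ± 0.10. SSR3 read 8.38, 8.21 and 8.54 with Dex and 8.38, 7.93 and 8.28 untreated (0.18 ± 0.17). DNAJC10 read 10.12, 10.14 and 10.10 with Dex and 10.12, 10.32 and 10.26 untreated (-0.11 ± 0.11). SEL1L read 8.34, 8.40 and 8.36 with Dex and 8.59, 8.44 and 8.54 untreated (-0.16 ± 0.11), the one of these 5 whose Dex arrays all lay under the untreated ones, without a call.

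The difference between the lines was tested itself, as the Dex effect in MM1S minus that in MM1R. It passed for 18 of the 46 genes, 15 lower and 3 higher in MM1S, where 8.8% and 8.7% of all genes did. Of the 18, 10 were folding genes. HSP90B1 (-0.70 ± 0.10, limma adjusted p = 7.68e-05), MANF (-0.90 ± 0.14, limma adjusted p = 0.000125) and DNAJB11 (-0.80 ± 0.15, limma adjusted p = 0.000754) had the smallest p of those lower. HSPA13, P4HB, SDF2L1, DNAJC3, CRELD2 and CALR also differed, at -0.78 to -0.41. The largest difference in size was that of SSR3 (-1.14 ± 0.24, limma adjusted p = 0.00223), the one gene of the 46 whose difference passed 2-fold (3.04% of all genes did), and SPCS3, SRPRB, SEC61B, SEL1L and SEC24D lay between -0.64 and -0.41. Higher in MM1S were DNAJC10 (0.88 ± 0.15, limma adjusted p = 0.000381), SYVN1 (0.42 ± 0.13, limma adjusted p = 0.035) and EIF2AK3 (0.41 ± 0.13, limma adjusted p = 0.043), whose effect was called in neither line alone. For 11 of the 28 genes called in MM1S, HSPA5, PDIA4 and PDIA6 among them, the difference between the lines was not called. With all 24 arrays in the fit, 8 genes were called in place of 18, and with median centring the whole-array split of 1004 higher and 1015 lower became 1231 and 703.

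**Figure D2:**
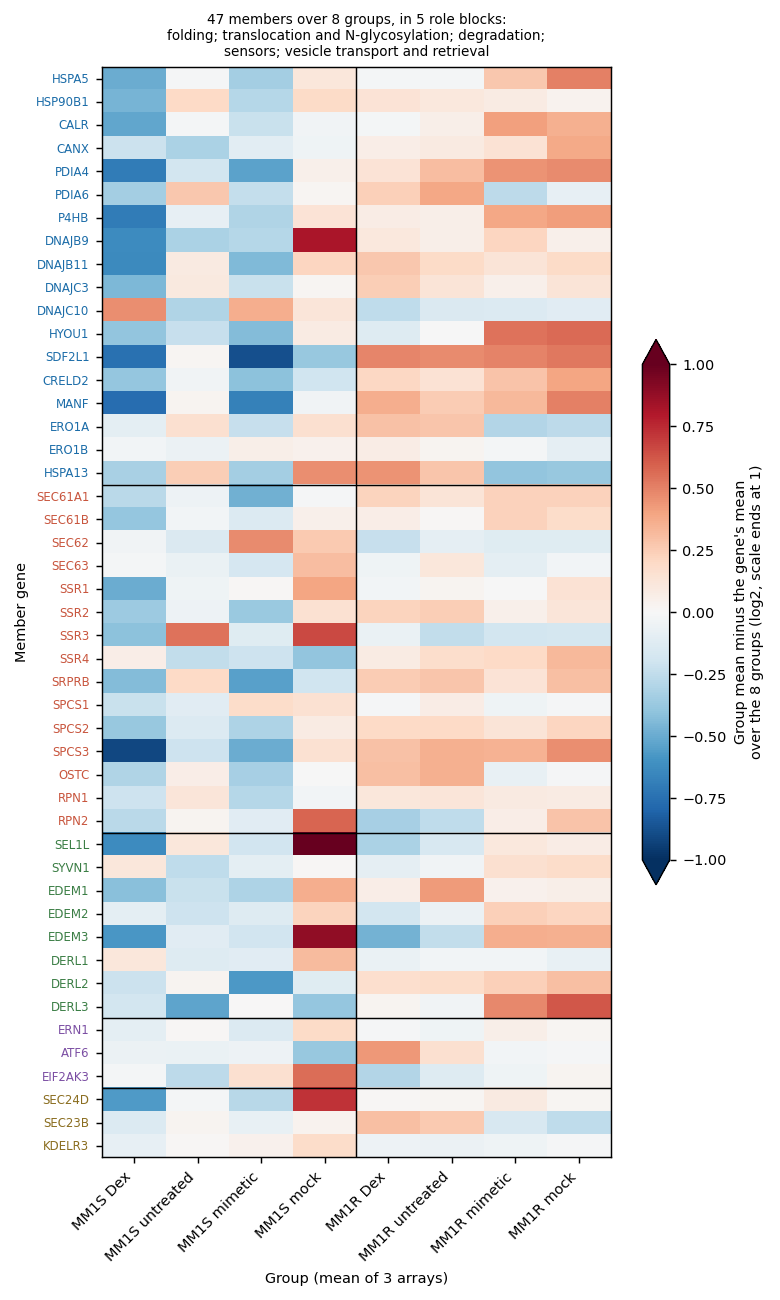
Group means of the 47 measured genes over the 8 groups, each minus the gene's own mean over the groups (log2, colour scale ending at 1), with genes in rows by role and MM1S groups left of MM1R groups. The MM1S Dex column is low for most folding rows, and the MM1S mock column is high for DNAJB9, SEL1L, EDEM3 and SEC24D.

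With the mimetic in MM1S, over all 3 arrays, 3 of 47 genes fell and none rose, where 0.42% and 0.145% of 12379 genes did; 29 of the 47 and 2642 of all genes had an unadjusted p under 0.05. The 3 were HSPA13 (-0.80 ± 0.16, limma adjusted p = 0.0455), SSR3 (-0.78 ± 0.16, limma adjusted p = 0.0456) and EDEM3 (-1.08 ± 0.21, limma adjusted p = 0.0446). All 3 calls lay close to the threshold, and none remained in the fit of the MM1S groups alone. The mimetic arrays did not act as 1 group: the median over the 47 genes, each against its mock mean, was -0.56 on mimetic 1, -0.56 on mimetic 2 and -0.02 on mimetic 3.

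**Figure D3:**
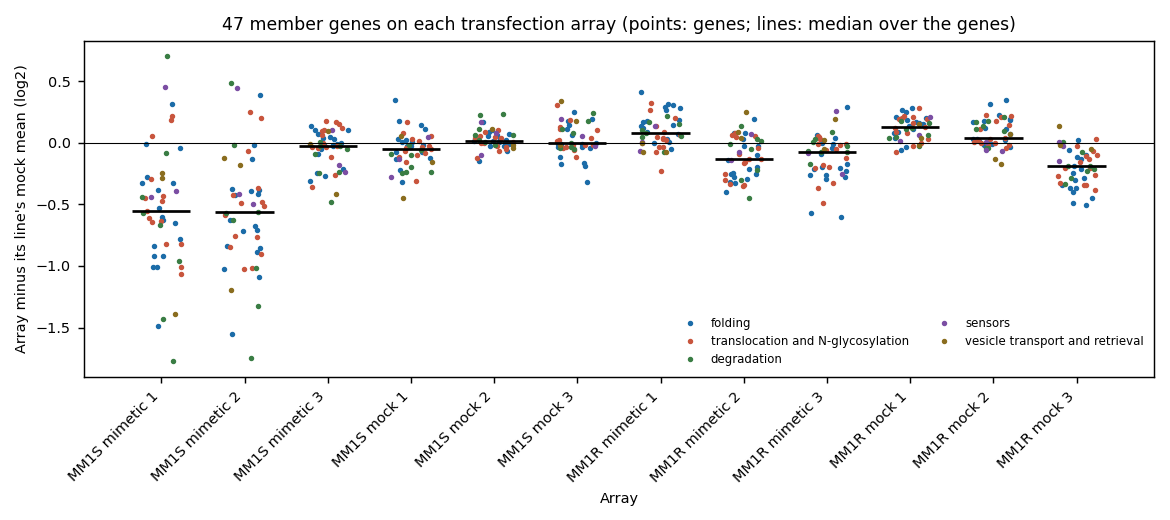
Each point is 1 of 47 genes on 1 transfection array, as its log2 level minus the mean of its line's 3 mock arrays, coloured by role; the black line is the median over the genes. The medians are -0.56 and -0.56 on MM1S mimetic 1 and 2, -0.02 on MM1S mimetic 3, and between -0.19 and 0.13 on all other arrays.

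Over replicates 1 and 2, the mimetic was lower than mock for 29 of the 47 genes and higher for 2, where 9.77% and 9.58% of 12268 genes were. KDELR3 was counted among the 47 in all mimetic comparisons and called in none. It entered these fits through the MM1S mock arrays, so its lack of a call says nothing. Genes called lower were 10 of 18 folding genes, 10 of 15 of translocation and N-glycosylation, 6 of 8 of degradation and 2 of 3 sensors. Of vesicle transport only 1 of 3 was lower. The 2 called higher were DERL3, of degradation, and ATF6, a sensor. Of the calls, 8 passed 2-fold, as 299 of the 12268 genes did. The median was -0.57 over the 47 genes and 0.02 over all genes. Since array 3 was left out after its position had been seen, these values describe 2 arrays against 3.

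SEL1L had the lowest difference. It read 7.92, 7.94 and 9.60 on mimetic arrays 1 to 3, against 9.46, 9.75 and 9.87 on the mock arrays, and the difference over replicates 1 and 2 was -1.76 ± 0.14 (limma adjusted p = 4.07e-07). Mimetic 3 lay within the range of the mock arrays, while the other two lay far below it. EDEM3 read 8.77, 8.87 and 9.72 with the mimetic and 9.96, 10.43 and 10.20 with mock (-1.38 ± 0.16 over replicates 1 and 2, limma adjusted p = 1.42e-05), and its second probe gave -0.21. EDEM1, of the same mannosidase family, read 10.93, 10.87 and 11.87 with the mimetic and 11.802, 11.870 and 12.003 with mock (-0.99 ± 0.12, limma adjusted p = 3.24e-05). In both, arrays 1 and 2 were below every mock array. EDEM2 (-0.53), DERL1 (-0.62) and DERL2 (-0.57) were lower as well. DERL3 was higher, with 9.69, 9.47 and 8.96 with the mimetic and 8.96, 9.04 and 8.94 with mock (0.59 ± 0.18, limma adjusted p = 0.0298), while SYVN1 was not called (-0.05 ± 0.17).

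The folding gene with the lowest difference was DNAJB9, known as ERdj4. Its levels were 10.08, 10.02 and 11.30 on the mimetic arrays and 11.57, 11.67 and 11.45 on the mock arrays (-1.52 ± 0.13 over replicates 1 and 2, limma adjusted p = 9.68e-07). HSPA13 was 7.46, 7.37 and 8.15 with the mimetic and 8.24, 8.43 and 8.71 with mock (-1.05 ± 0.12, limma adjusted p = 1.56e-05). Both of these genes were lower on mimetic 3 than on every mock array too, by much less than on the other two. MANF was 11.41, 11.39 and 12.51 with the mimetic and 12.56, 12.44 and 12.25 with mock (-1.02 ± 0.14, limma adjusted p = 8.68e-05). DNAJB11 was 11.72, 11.81 and 12.43 with the mimetic and 12.57, 12.73 and 12.63 with mock (-0.88 ± 0.14, limma adjusted p = 0.000397). Also lower were PDIA4 (-0.90), SDF2L1 (-0.78), HYOU1 (-0.74), HSP90B1 (-0.70), P4HB (-0.68) and ERO1A (-0.46). HSPA5 (-0.64 ± 0.23) was not called, nor were CALR, CANX, PDIA6, DNAJC3, DNAJC10, CRELD2 and ERO1B, which ranged from -0.38 to 0.35.

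**Figure D4:**
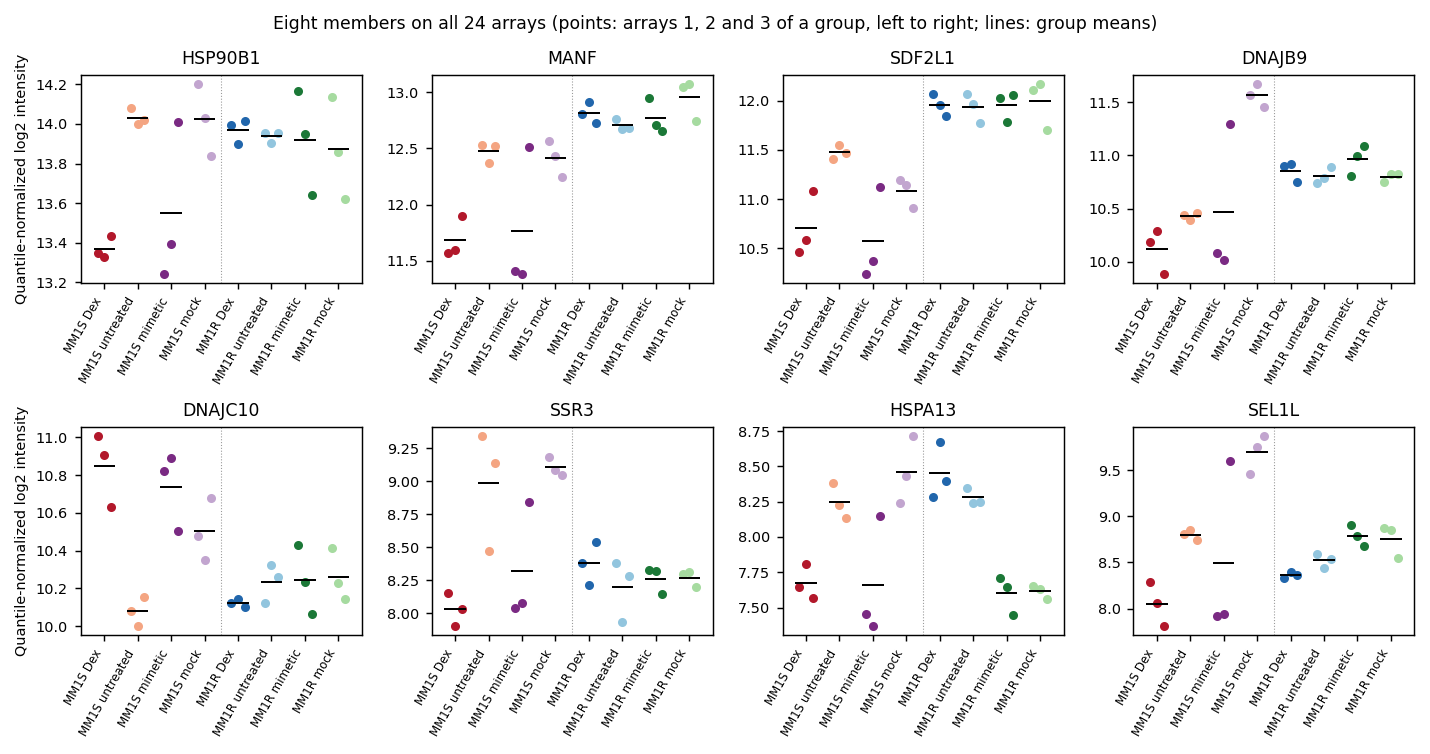
Quantile-normalized log2 intensity of 8 genes on all 24 arrays, with the groups along the axis (MM1S left of the dotted line, MM1R right of it), the arrays 1 to 3 of a group as points from left to right and the group mean as a line. MM1S mimetic 3 sits nearer to the mock mean than to the other mimetic arrays in each panel, and the MM1R groups with and without Dex overlap in every panel but that of SEL1L.

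In translocation, SSR3 was 8.04, 8.08 and 8.85 with the mimetic and 9.18, 9.09 and 9.05 with mock (-1.04 ± 0.11, limma adjusted p = 4.53e-06). SPCS3 was 9.43, 9.43 and 10.53 with the mimetic and 10.40, 10.44 and 10.48 with mock (-1.01 ± 0.14, limma adjusted p = 0.000101). For each gene arrays 1 and 2 were far below mock, while array 3 lay a little below mock in SSR3 and a little above it in SPCS3. SSR2 (-0.84), SSR1 (-0.57), SPCS2 (-0.57), RPN2 (-0.86), OSTC (-0.48), SEC63 (-0.70), SEC61A1 (-0.68) and SEC61B (-0.36) were lower too. SSR4 (0.19 ± 0.15), SEC62 (0.23 ± 0.12), SRPRB (-0.46 ± 0.18), SPCS1 (-0.01 ± 0.11) and RPN1 (-0.41 ± 0.15) were not called.

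The sensors parted: ERN1 was 7.27, 7.25 and 7.49 with the mimetic and 7.53, 7.83 and 7.64 with mock (-0.41 ± 0.10, limma adjusted p = 0.0141). EIF2AK3 was 8.82, 8.77 and 9.03 with the mimetic and 8.99, 9.35 and 9.46 with mock (-0.47 ± 0.15, limma adjusted p = 0.0375). ATF6 was 11.04, 11.04 and 10.70 with the mimetic and 10.64, 10.50 and 10.65 with mock (0.45 ± 0.14, limma adjusted p = 0.0409). So IRE1 and PERK transcripts were lower and the ATF6 transcript higher on arrays 1 and 2, the last losing its call under 9 alternatives. SEC24D was 7.83, 8.02 and 8.81 with the mimetic and 8.77, 9.33 and 9.56 with mock (-1.29 ± 0.18, limma adjusted p = 0.000103), with array 3 within the mock range. Of the second list, 21 of 56 genes were lower and 1 was higher, led by ERLEC1 (-1.44), SEC11C (-0.83), FKBP11 (-1.04) and TXNDC11 (-0.91) downward and UBE2G2 (0.56) upward. With mimetic 2 as the only mimetic array of MM1S, 14 of the 47 genes were called, and with mimetic 1 alone 17. Of the 31 calls over both arrays, 10 held under every alternative run: SEL1L, EDEM1, EDEM3, DNAJB9, HSPA13, MANF, DNAJB11, SSR3, SPCS3 and SEC24D. Each of these alternatives left out mimetic 3, so they do not test that choice. A call could also hold at a far smaller size, as for EDEM3 on its second probe, given above. Over all 3 mimetic arrays, EDEM3, HSPA13 and SSR3 of the 10 were called and the others were not.

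In MM1R, 0 of 47 genes were called with the mimetic (limma adjusted p under 0.05), with 0% higher and 0% lower over all 12379 genes. At an unadjusted p under 0.05 there were 0 of the 47 and 249 of all genes. Differences ran from -0.24 to 0.16. SEL1L read 8.91, 8.78 and 8.68 with the mimetic and 8.87, 8.85 and 8.54 with mock, and SSR3 read 8.33, 8.32 and 8.14 with the mimetic and 8.30, 8.31 and 8.20 with mock. Both sets overlapped throughout, at 0.03 ± 0.31 and -0.01 ± 0.16. These errors rest on a spread shared by all transfection groups, MM1S mimetic 3 included, and not on the MM1R arrays alone. The MM1R arrays also spread widely within a group for some folding genes: HSPA5 read 10.10, 9.44 and 9.27 with the mimetic and 9.999, 10.186 and 9.333 with mock. Mimetic 1 thus lay with mock 1 and 2, and mock 3 with mimetic 2 and 3. Distances over all detected probes split alike. Mimetic 1 lay 0.129 and 0.134 from mock 1 and 2, but 0.206 and 0.240 from mimetic 2 and 3. Mock 3 lay 0.128 and 0.178 from mimetic 2 and 3, but 0.221 and 0.229 from mock 1 and 2. Whether mimetic 1 and mock 3 were exchanged was not tested, and the 0 calls rest on the labels as given. The mimetic effect in MM1S minus that in MM1R passed for 0 of 47 genes over all 3 arrays (0% higher and 0% lower of all genes; unadjusted p under 0.05 in 10 of the 47 and in 1601 of all genes).

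Over replicates 1 and 2 of the MM1S mimetic arrays the test between the lines called 15 genes, all lower in MM1S, where 5.4% of all genes were lower and 3.85% higher. SEL1L (-1.79 ± 0.19, limma adjusted p = 1.85e-05) and DNAJB9 (-1.68 ± 0.18, limma adjusted p = 1.85e-05) had the smallest p, followed by SSR3 (-1.04), EDEM3 (-1.39), HSPA13 (-1.03), EDEM1 (-0.97) and SEC24D (-1.36). The others were SPCS3, MANF, DNAJB11, SSR2, HSP90B1, SDF2L1, PDIA4 and ERO1A. By role, they were 8 folding genes, 3 of translocation, 3 of degradation and 1 of vesicle transport. For this test mimetic 3 of MM1S was left out after it was seen, while all MM1R arrays were kept, although their groups were mixed. It thus sets a selected set of MM1S arrays against an unselected set of MM1R arrays. With all arrays kept in both lines, 0 genes passed.

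The Dex and mimetic experiments in MM1S had separate control arrays, untreated and mock, and their calls are set side by side here. Of 46 genes tested in both, 17 were lower in each, which was 70.8% of the 24 lower with Dex and 58.6% of the 29 lower with the mimetic over replicates 1 and 2. These shares start from different bases: 63% of the 46 genes and 10.5% of 11014 genes were lower with the mimetic, and 52.2% and 14.1% with Dex. Over all genes the shares were 42.1% and 56.6%. DERL3 was higher in both, and 0 of the 46 genes were called in opposite directions. Of the 11014 genes, 593 were higher in both. Opposite calls were rare over all genes too: 19 were lower with Dex and higher with the mimetic, and 25 were the reverse. The sizes differed by gene. HSP90B1 had -0.66 with Dex and -0.70 with the mimetic, and SSR3 had -0.95 and -1.04. DNAJB9 had -0.31 and -1.52, and SEL1L had -0.74 and -1.76. The controls differed too: mock minus untreated in MM1S was 1.13 for DNAJB9 and 0.89 for SEL1L, but -0.01 for HSP90B1 and 0.12 for SSR3. For DNAJB9 and SEL1L the 2 effects were thus measured from unlike levels. The same held for EDEM3 (1.00 on its main probe), SEC24D (0.74) and SSR1 (0.43), which were also lower in both treatments and called higher in mock. Called with Dex alone were CALR, PDIA6, DNAJC3, CRELD2, HSPA5, SRPRB and RPN1 among the lower genes, and with the mimetic alone HYOU1, ERO1A, SEC61A1, SEC63, SPCS2, RPN2, EDEM1, EDEM2, DERL1, DERL2, ERN1 and EIF2AK3. Of those called with the mimetic alone, RPN2, EDEM1, EDEM2, DERL1 and EIF2AK3 were called higher in mock than in untreated MM1S cells, and the others were not. The difference between the 2 treatments was not tested.

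Untreated MM1R cells had 9 of 46 genes higher and 1 lower than untreated MM1S cells, where 5.24% and 4.27% of all genes were. DERL3 read 9.42, 9.20 and 9.38 in MM1R and 8.84, 8.90 and 8.79 in MM1S (0.49 ± 0.11, limma adjusted p = 0.00821). SPCS3 read 10.69, 10.59 and 10.66 in MM1R and 10.06, 10.20 and 9.97 in MM1S (0.57 ± 0.10, limma adjusted p = 0.00065), though its second probe differed by -0.02. PDIA4 read 9.33, 9.44 and 9.41 in MM1R and 8.88, 8.88 and 8.94 in MM1S (0.49 ± 0.11, limma adjusted p = 0.00819). Each was higher on all MM1R arrays than on all MM1S arrays. EDEM1 (0.65), SDF2L1 (0.46), SSR4 (0.42), CANX (0.40), DNAJB9 (0.38) and SPCS2 (0.34) were higher as well. SSR3 was lower, with 8.38, 7.93 and 8.28 in MM1R and 9.34, 8.47 and 9.14 in MM1S (-0.79 ± 0.17, limma adjusted p = 0.00508), and was the 1 call of the 10 that held under every alternative. Without MM1R untreated 1, MM1R untreated 2, MM1S untreated 1 or MM1S untreated 3, 3 to 6 genes were called, and with all 24 arrays in the fit 1. Of the second list, CREB3L2 (1.06), STX5 (0.59), FKBP11 (0.55) and SIL1 (0.50) led among 8 higher, against 2 lower.

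Between the mock arrays, 5 of 47 genes were higher and 9 lower in MM1R, where 15.3% and 17.8% of all genes were. DERL3 was 10.15, 10.16 and 9.66 in MM1R and 8.96, 9.04 and 8.94 in MM1S (1.01 ± 0.19, limma adjusted p = 0.00131). SDF2L1 was 12.10, 12.17 and 11.70 in MM1R and 11.19, 11.14 and 10.91 in MM1S (0.91 ± 0.20, limma adjusted p = 0.00333). SSR4 was 13.68, 13.77 and 13.21 in MM1R and 13.01, 12.78 and 12.72 in MM1S (0.72 ± 0.14, limma adjusted p = 0.0014). These 3, with their arrays apart, were the genes higher in MM1R in both sets of arrays. SSR3 was the 1 gene lower in both, with 8.30, 8.31 and 8.20 in MM1R and 9.18, 9.09 and 9.05 in MM1S (-0.84 ± 0.16, limma adjusted p = 0.00158). HSPA13 (-0.84 ± 0.16), SEL1L (-0.94 ± 0.31), DNAJB9 (-0.77 ± 0.24), SEC24D (-0.70 ± 0.22), EIF2AK3 (-0.53 ± 0.14), ERO1A (-0.42 ± 0.09) and SEC62 (-0.38 ± 0.11) were lower in mock MM1R, and CRELD2 (0.59 ± 0.21) and SRPRB (0.50 ± 0.18) higher. The ninth, KDELR3, a receptor that returns escaped chaperones to the ER, was detected on 4 of 24 arrays, 3 of them the MM1S mock arrays, and entered the fit through these. Its call therefore says nothing, and without it 5 of 46 genes were higher and 8 lower. DNAJB9 was thus higher in MM1R among untreated arrays and lower among mock arrays.

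**Figure D5:**
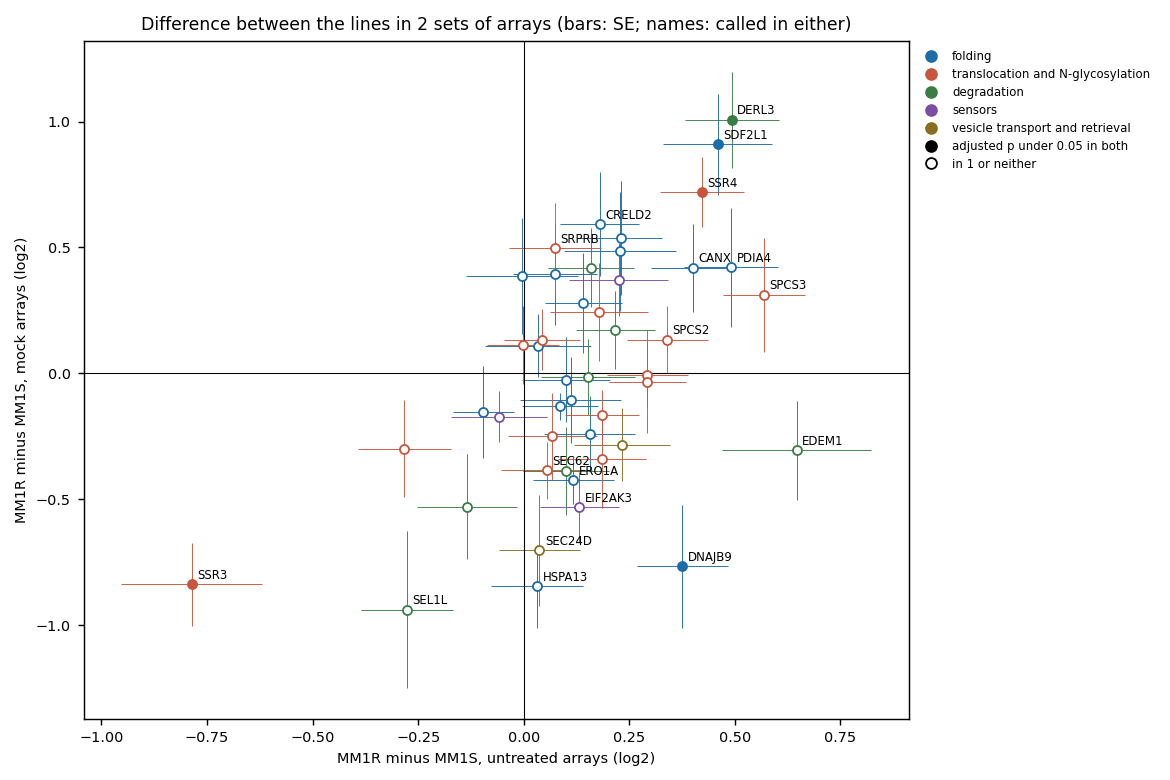
MM1R minus MM1S on the log2 scale for 46 genes, in untreated arrays (horizontal axis) and in mock arrays (vertical axis); bars are standard errors, filled points passed in both sets and names mark genes called in either. DERL3, SDF2L1 and SSR4 lie up in both, SSR3 lies down in both, and DNAJB9 lies at 0.38 in untreated and -0.77 in mock arrays.

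Leaving out MM1S mock 3, MM1S mock 2, MM1R mock 1 or MM1R mock 2 reduced the 14 calls between mock arrays to 7 or 8. Leaving out MM1S mimetic 3, which is in neither group but shares the fit, raised them to 20. Under median centring 3 genes were higher and 16 lower, and over the whole array 762 and 3419 in place of 1897 and 2198. That scaling moved the median of all genes by -0.12 in this comparison and by 0.21 in mock against untreated MM1S, and by 0.11 in the difference of the mock effects.

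Mock and untreated arrays differ in electroporation and in the experiment they come from, which cannot be told apart. In MM1S, mock was higher than untreated for 14 of 47 genes and lower for 1, where 15.5% and 13.7% of 13283 genes were. Higher were 5 of 8 degradation genes, 4 of 15 genes of translocation, 2 of 18 folding genes, 2 of 3 genes of vesicle transport and 1 of 3 sensors. EIF2AK3 read 8.99, 9.35 and 9.46 in mock and 8.42, 8.46 and 8.46 in untreated cells (0.81 ± 0.12, limma adjusted p = 1.67e-05). DNAJB9 read 11.57, 11.67 and 11.45 in mock and 10.44, 10.39 and 10.46 in untreated cells (1.13 ± 0.20, limma adjusted p = 0.000128). SEL1L read 9.46, 9.75 and 9.87 in mock and 8.81, 8.85 and 8.74 in untreated cells (0.89 ± 0.24, limma adjusted p = 0.0079). The mock arrays were above all untreated ones in each.

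SEC24D (0.74 ± 0.18) and SEC62 (0.41 ± 0.11) were higher too, and these 5 calls held under every alternative. EDEM3 was higher on its main probe (1.00 ± 0.17, limma adjusted p = 0.000145), while its second probe gave -0.01. EDEM1 (0.58), EDEM2 (0.43), DERL1 (0.45), RPN2 (0.55), SSR1 (0.43), DNAJC10 (0.42) and SPCS1 (0.26) were higher by less. KDELR3, counted as higher, entered the fit through the mock arrays, and without it 13 of 46 genes and 1 of 2 genes of vesicle transport were higher. SRPRB was lower (-0.40 ± 0.15). Under median centring 36 of the 47 were higher and 0 lower, SRPRB included at 0.08 with no call, and 5743 genes of the whole array were higher and 389 lower, against 2057 and 1825. Without MM1S mock 3, MM1S untreated 1 or MM1S untreated 2, 6 to 9 genes were called. In the second list, CREB3L2 (1.22) and ERLEC1 (0.91) were higher and VCP (-0.95) lower.

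In MM1R, mock was higher than untreated for 4 of 47 genes and lower for 5, where 9.37% and 9.03% of all genes were. ERO1A averaged 7.98 ± 0.09 in mock and 8.52 ± 0.11 in untreated cells (mean ± SD, n = 3 each; difference -0.54 ± 0.09, limma adjusted p = 0.000111). HSPA13 read 7.66, 7.64 and 7.56 in mock and 8.35, 8.24 and 8.25 in untreated cells (-0.66 ± 0.15, limma adjusted p = 0.00183), while its second probe gave 0.53. Both lay under the untreated arrays throughout. PDIA6 (-0.47), OSTC (-0.37, though 0.21 with no call on its second probe) and SEC23B (-0.51) were lower as well, and DERL3 (0.65), EDEM3 (0.61, though -0.34 with a call on its second probe), HYOU1 (0.57) and RPN2 (0.54) higher. Without MM1R untreated 1, MM1R untreated 2 or MM1R mock 2, 4 genes were called, and under median centring 13 were higher and 2 lower, with 1792 and 362 in place of 1245 and 1199 over the whole array.

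The mock effect in MM1S minus that in MM1R, a test added after the data were seen, passed for 7 genes, all higher in MM1S, where 10.1% of all genes were higher and 8.81% lower. They were DNAJB9 (1.14 ± 0.28, limma adjusted p = 0.00532), EDEM1 (0.95 ± 0.29), HSPA13 (0.88 ± 0.21, limma adjusted p = 0.0043), SEC24D (0.74 ± 0.25), EIF2AK3 (0.66 ± 0.16), ERO1A (0.54 ± 0.13) and SEC62 (0.44 ± 0.15). Under median centring, which made 2485 genes of the whole array higher and 449 lower in place of 1336 and 1170, 14 of the 47 were called. Without MM1S untreated 2, MM1R mock 2 or MM1S mock 3, 4 were called.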

How the data were processed

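RNA of MM1S and MM1R cells, in 8 groups of 3 samples, was hybridised to Illumina HumanHT-12 arrays of 47224 probes. The authors summarized bead intensities with beadarray and deposited the log2 intensities before normalization, with a detection p-value per probe and array, whose computation is not given in the sources used here. They also deposited a quantile normalized table, and the submitters' processing notes name limma 3.14.1. The log2 values before normalization were quantile normalized here over the 24 arrays, with no further background correction, and differed from the authors' normalized table by a median of 0.000138. A probe entered a fit when its detection p was under 0.05 on at least 3 arrays of that fit. Differences between group means were tested with limma 3.58.1 in R 4.3.3 (lmFit and eBayes with a trend), with Benjamini-Hochberg adjustment over all 21486 probes of the Dex experiment, 23377 of the transfection experiment (12 arrays each) or 26277 of all arrays, the last for mock against untreated. Calls were made where the adjusted p of a gene's 1 probe was under 0.05. Errors beside differences are limma standard errors, with 1 estimate of the spread per probe shared by all groups of a fit. The methods speak of independent experiments, and p-values measure the spread between these samples, which may be partly technical, since the labels do not name separate cultures.

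The listed genes and the second list of 57 secretory genes were chosen with earlier results of these data known. Per comparison, called genes could be named up to 30, by smallest adjusted p. Values per array were given in each role to at most 4 of these and to at most 2 of opposite direction, and the second list was named by at most 4 genes in each direction. Probes carry the gene symbols of the array annotation: 30106 had 1 symbol, 8 several and 17106 none, and only the first were used. Alternatives were normexp correction (offset 50), median centring, the normalized table of the authors, either no filter or one at a detection p of 0.01, other arrays in the fit, array weights, blocks, another probe and leaving out each array. Leaving out MM1S mimetic 3 and testing the difference of the mock effects were added after the data were seen. The fit was tested on simulated data. Promoters came from RefSeq tables. Figures were drawn with Python 3.11.15 and matplotlib 3.10.9. No mature sequence of mir-150-5p was used here.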

Additional observations from a re-analysis of the deposited data

Results flagged for a closer look

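Differences between the lines that passed their own test are gathered here. The Dex effect in MM1S minus that in MM1R (log2, limma adjusted p under 0.05) was below 0 for SSR3 (-1.14), MANF (-0.90), DNAJB11 (-0.80), SDF2L1 (-0.78), HSPA13 (-0.75), HSP90B1 (-0.70), DNAJC3 (-0.66), SPCS3 (-0.64), P4HB (-0.63), SRPRB (-0.61), SEL1L (-0.59), SEC24D (-0.54), CALR (-0.43), CRELD2 (-0.41) and SEC61B (-0.41). It was above 0 for DNAJC10 (0.88), SYVN1 (0.42) and EIF2AK3 (0.41).

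For the mimetic, over MM1S replicates 1 and 2, the effect in MM1S minus that in MM1R was SEL1L -1.79, DNAJB9 -1.68, EDEM3 -1.39, SEC24D -1.36, SSR3 -1.04, HSPA13 -1.03, EDEM1 -0.97, SPCS3 -0.90, PDIA4 -0.88, MANF -0.84, DNAJB11 -0.82, SSR2 -0.77, HSP90B1 -0.75, SDF2L1 -0.74 and ERO1A -0.43. With mimetic 3 of MM1S included, 0 of these passed. No MM1R array was left out, although the MM1R transfection groups were mixed.

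The mock effect in MM1S minus that in MM1R was above 0 for DNAJB9 (1.14), EDEM1 (0.95), HSPA13 (0.88), SEC24D (0.74), EIF2AK3 (0.66), ERO1A (0.54) and SEC62 (0.44). The mimetic and mock differences share the mock arrays.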

How the results depend on the processing

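Several counts of genes called moved by over 1.5 times. For the mimetic in MM1S over all 3 arrays, 3 calls became 5 under median centring, 6 with no filter on dim probes, 0 with only the groups compared, 16 with all 24 arrays in 1 fit, 39 with array weights and 9 with the replicate number as a block, and 0 to 31 when 1 array was left out, the 31 without MM1S mimetic 3. The difference of the mimetic effects went to 19 with array weights, and to 0 to 15 with 1 array left out; over replicates 1 and 2 it went to 23 with all 24 arrays, 28 with array weights and 8 to 16 with 1 array left out. The mimetic in MM1S over replicates 1 and 2 gave 14 to 35 calls with 1 array left out, where a lone mimetic array was assumed to vary like the other groups. The difference of the Dex effects had 8 calls with all 24 arrays and 13 to 19 with 1 array left out, Dex in MM1S 23 to 31, and Dex and the mimetic in MM1R 0 in every case. Untreated MM1R against MM1S had 1 call with all 24 arrays and 3 to 12 with 1 left out. Mock MM1R against MM1S had 27 with array weights and 7 to 20 with 1 left out. Mock against untreated in MM1S had 36 under median centring, 23 with weights and 6 to 18 with 1 left out, and in MM1R 15, 14 and 4 to 12. The difference of the mock effects had 14 under median centring, 11 with only the groups compared, 14 with weights and 4 to 10 with 1 left out. Every other alternative kept each count within 1.5 times.

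Some genes changed sign. With another probe, SPCS3 became -0.015 in untreated MM1R against MM1S, -0.44 in mock against untreated MM1S and -0.80 in MM1R, SSR2 0.82 in mock MM1R against MM1S, OSTC 0.31 in mock MM1S and 0.21 in mock MM1R, EDEM3 -0.0067 in mock MM1S and -0.34 in mock MM1R, HSPA13 0.53 in mock MM1R, and SPCS2 -0.44 in the difference of the mock effects. Under median centring of mock against untreated in MM1S, HSP90B1 became 0.34, CALR 0.46, ERO1A 0.43, SRPRB 0.0823 and DERL2 0.36. The causes were not tested. Of 1605 role medians recomputed, 59 moved by more than the spread between arrays. Of the 13 genes with several probes, 7 had calls that differed between probes for Dex in MM1S, none in opposite directions.

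Same-numbered arrays were not treated as pairs in the main fits. In no comparison did all 3 same-numbered pairs correlate at over 0.1, although all 3 were above 0 in some. With 3 pairs a comparison, this cannot show that pairing was absent. Beyond the mimetic count above, the block moved no count by over 1.5 times; the titles and descriptions number the untreated MM1R arrays differently, and both numberings were tried. Arrays could not be blocked by slide, since the files used here name none. With 3 arrays a group, small changes can be missed, and KDELR3 was below background on every array of 6 groups.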
